A study of Mus musculus with 2 samples.

Results

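Neutrophil granule protein genes were followed through blood from db/db mice and from wild-type mice (wt). The set held 10 genes of the 31053 that each count table lists: Camp, Ngp, Ltf, Lcn2, Mmp8, Mmp9, Cd177, Ly6g, Wfdc21 and Ifitm6. They were taken by name, with no threshold on a measured value, though earlier results of these data were known when they were chosen. All 10 reached 20 UMIs (unique molecular identifiers, 1 per captured transcript) in the neutrophils of both libraries together. Their UMIs were counted in barcodes that had 200 to 6000 detected genes and a mitochondrial UMI share under 10%.

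Neutrophils store antimicrobial and matrix-degrading proteins in granules that are filled one kind after another while the cells mature in the bone marrow. Azurophil granules come first, specific granules with lactoferrin, cathelicidin and lipocalin 2 follow, and gelatinase granules and secretory vesicles are made last. Transcription of the earlier granule genes is largely shut off before neutrophils leave the marrow, so their mRNA marks precursors while the proteins persist in mature cells. Ly6g and Ifitm6 encode membrane proteins rather than granule contents, and Cd177 encodes a glycoprotein of the surface and of granule membranes.

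The blood came from male C57BLKs/J mice aged 21 weeks, 3 per genotype, and 200 µl per group were drawn by retro-orbital bleeding. The db/db mice carry a mutation of the leptin receptor gene Lepr and serve as a model of obesity with type 2 diabetes, whereas the wt mice of the same strain are wild-type. Red cells were lysed in both groups, and cells were captured with the droplet-based 10x Genomics 3′ v2 protocol. Each genotype gave 1 library and no cell is tied to a mouse, so no test between the genotypes was possible. The intervals are at 95% and cover no error but that of counting. Where a count was 0, the limit given is the level or share that 3 counts would make.

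The wt library kept 5727 of 16700 barcodes and the db/db library 6109 of 19912. Neutrophils, grouped by clustering in which the granule genes were left out, numbered 164 in wt and 358 in db/db, with 370256 and 709211 UMIs in sum and a median of 1893 and 1474 UMIs per cell. All 13 neutrophil markers, such as S100a8, Csf3r and Cxcr2, were detected in the neutrophils of both libraries. Haemoglobin transcripts took 17.0% of the UMIs of wt neutrophils and 27.1% of those of db/db neutrophils. Of 8 proximal tubule markers of the kidney, none was seen in wt neutrophils and 6 were seen in db/db neutrophils, at 71.9 CPM in sum (UMIs per 1e6 UMIs summed over the class), with Lrp2 and Cubn at 0. Summed B cell markers stood at 591 CPM in wt neutrophils and at 372 CPM in those of db/db, with all 10 of them seen in both, and platelet markers at 1431 and 1004 CPM. T cell markers stood at 203 CPM with 11 of 11 seen in wt, and at 60.6 CPM in db/db with 8 of 11 seen (Cd3e, Cd8a and Cd8b1 at 0). The part of these other transcripts in the differences below was not tested, except where a value without haemoglobin is given. The libraries shared 91 barcodes, and 11 of these passed the filters in both, among them 4 neutrophils and 1 monocyte that held 22 UMIs of the 10 genes. Leaving them out changed no count of genes past 2-fold.

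Camp (a cathelicidin), Ngp (neutrophilic granule protein, of the cystatin fold) and Ltf (lactoferrin, which binds iron) lie on mouse chromosome 9, and Lcn2 (lipocalin 2, which binds bacterial siderophores) on chromosome 2. In GRCm38 the 3 genes of chromosome 9 span chr9:109847379-109849617 on the minus strand for Camp, and chr9:110419747-110423012 and chr9:111019271-111042767 on the plus strand for Ngp and Ltf. Lcn2 spans chr2:32384633-32388252 (minus). The other members lie at chr9:7558456-7568485 (plus, Mmp8), chr2:164940780-164955850 (plus, Mmp9), chr7:24743983-24760311 (minus, Cd177), chr15:75155240-75159126 (plus, Ly6g), chr11:83746940-83752642 (plus, Wfdc21) and chr7:141015699-141017924 (minus, Ifitm6). All 10 are protein coding.

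Gaps of 570.1 and 596.3 kb separate Camp from Ngp and Ngp from Ltf, and no other annotated gene overlaps any of the 10 members. The promoters of these 4 genes are shown because Camp, Ngp and Ltf were found together in single cells below, and because Lcn2 reached its highest count per neutrophil in the same db/db cell. Each run holds 250 bases before and 50 bases after the start of the gene (RefSeq, GRCm38.p6), at chr9:109849407-109849706 (minus strand) for Camp, chr9:110419558-110419857 (plus) for Ngp, chr9:111019042-111019341 (plus) for Ltf and chr2:32387690-32387989 (minus) for Lcn2. The RefSeq starts are not the ends of the spans given above, and the Lcn2 run lies wholly inside the Lcn2 span. Capitals mark matches on either strand to TTGCNNAA, a core recognised by the C/EBP factors that drive granulocyte genes.
Camp: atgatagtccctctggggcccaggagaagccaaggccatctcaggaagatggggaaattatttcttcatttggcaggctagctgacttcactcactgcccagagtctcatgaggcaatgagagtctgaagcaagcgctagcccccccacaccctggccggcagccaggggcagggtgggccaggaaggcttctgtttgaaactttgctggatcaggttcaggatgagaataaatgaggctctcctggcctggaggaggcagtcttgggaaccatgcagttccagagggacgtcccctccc
Ngp: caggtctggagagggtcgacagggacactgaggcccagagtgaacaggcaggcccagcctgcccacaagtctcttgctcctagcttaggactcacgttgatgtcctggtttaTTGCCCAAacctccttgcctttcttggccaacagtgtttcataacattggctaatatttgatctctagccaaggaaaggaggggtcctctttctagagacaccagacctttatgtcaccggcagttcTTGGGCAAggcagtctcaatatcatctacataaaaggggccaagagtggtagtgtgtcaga
Ltf: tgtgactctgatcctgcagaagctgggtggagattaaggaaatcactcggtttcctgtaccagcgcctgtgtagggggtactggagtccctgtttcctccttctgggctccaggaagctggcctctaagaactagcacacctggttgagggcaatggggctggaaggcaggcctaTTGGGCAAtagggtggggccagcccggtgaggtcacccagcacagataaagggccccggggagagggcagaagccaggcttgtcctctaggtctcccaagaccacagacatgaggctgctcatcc
Lcn2: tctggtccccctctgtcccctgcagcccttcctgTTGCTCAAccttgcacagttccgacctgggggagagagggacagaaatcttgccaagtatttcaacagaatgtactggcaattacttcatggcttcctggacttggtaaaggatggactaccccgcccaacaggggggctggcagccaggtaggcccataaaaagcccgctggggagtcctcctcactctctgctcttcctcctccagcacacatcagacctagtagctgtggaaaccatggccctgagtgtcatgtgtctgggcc
Ngp holds 2 such matches, Ltf and Lcn2 hold 1 each, and Camp holds 0. Among all 32851 promoters of this length, 10.8% hold at least 1 match. The letters GAGGAAG, a PU.1 core that overlaps no C/EBP match in these runs, occur once in the Lcn2 run, in none of the other 3, and in 13.6% of all promoters. A match describes the letters of the window and not a bound site.

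The 3 precursor genes were the members with the largest differences between the summed neutrophils of the libraries, and the db/db sums came almost wholly from 1 cell. Camp had 4 UMIs in 3 of 164 wt neutrophils and 109 UMIs in 2 of 358 db/db neutrophils. Ngp had 5 UMIs in 2 wt cells and 122 UMIs in 1 db/db cell. Ltf had 5 UMIs in 1 wt cell and 69 UMIs in 1 db/db cell. Of the 300 db/db UMIs of the 3 genes together, 299 (99.7%) lay in the same cell, which held 108 of Camp, 122 of Ngp and 69 of Ltf. In wt the highest cell held 11 of 14 UMIs (78.6%).

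As sums these counts gave 10.8 CPM for Camp in wt neutrophils (interval 2.94 to 27.7) and 154 CPM in db/db neutrophils (126 to 185). Ngp stood at 13.5 CPM (4.38 to 31.5) and 172 CPM (143 to 205), and Ltf at 13.5 CPM (4.38 to 31.5) and 97.3 CPM (75.7 to 123). The log2 ratio of CPM plus 10, db/db over wt, was 2.98 for Camp, 2.95 for Ngp and 2.19 for Ltf. Without the 1 db/db cell, Camp was at 1.42 CPM and Ngp and Ltf at 0, and the log2 ratios were -0.87, -1.23 and -1.23. The share of neutrophils with any UMI of the 3 genes ran the other way from the sums, at 4 of 164 in wt (2.44%, Clopper-Pearson interval 0.668 to 6.13) and 2 of 358 in db/db (0.559%, 0.0677 to 2.00), with overlapping intervals. Beside this, B cells, which make no granules, held 0 UMIs of the 3 genes in 2517 wt and 2447 db/db cells, at median depths of 2196 and 2183 UMIs, which allows shares of up to 0.119% and 0.123%.

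**Figure D1:**
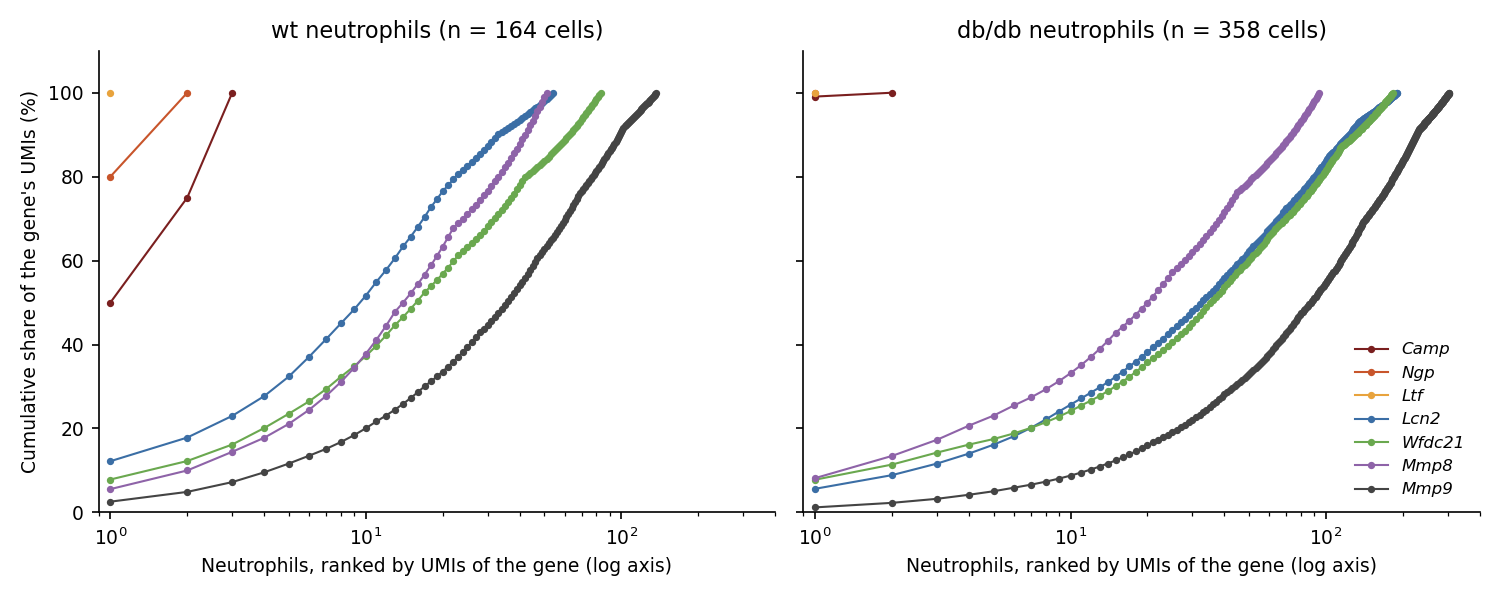
Cumulative share of a gene's UMIs (y, percent) against neutrophils ranked by their UMIs of that gene (x, number of cells, log axis) in wt (left, 164 cells) and db/db (right, 358 cells). In db/db the first cell alone reaches 99.1% for Camp and 100% for Ngp and Ltf, whose points coincide there, while 33 cells are needed to reach 50% for Lcn2 and 87 for Mmp9.

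The db/db cell that carried Camp, Ngp and Ltf had 4852 UMIs and 1482 genes, more UMIs than 93.9% of the db/db neutrophils, with 0.721% of its UMIs from haemoglobin. It held 388 UMIs of the 10 members, 8.0% of its total, and 10 of the 13 neutrophil markers. It held 1 monocyte marker, 1 T cell marker and no B cell, NK cell or platelet marker. It also held 4 of 10 erythroid markers. Lcn2 had 45 UMIs in it, the most in any neutrophil of either library, Wfdc21 had 19, Cd177 had 9, Mmp9 had 8, Ly6g and Ifitm6 had 4 each, and Mmp8 had 0. A count of 0 of 4852 UMIs allows up to 618 CPM, above the 295 CPM of Mmp8 in the other 357 db/db neutrophils.

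Several other specific granule genes were high in that cell as well. Chil3, a chitinase-like lectin, had 21 UMIs there and 3 in the other 357 db/db neutrophils. Olfm4, a glycoprotein of a subset of specific granules, had 13 there and 31 in the others, at 2679 CPM (1427 to 4582) against 44.0 CPM. Cybb, the membrane subunit of the NADPH oxidase, had 10 there and 23 in the others. Lyz2, lysozyme, had 36 UMIs, 7420 CPM (5197 to 10272) against 1238 CPM. Not every gene of this list was high. Hp, haptoglobin, was at 2679 CPM (1427 to 4582) against 2453 CPM, and Fcnb, a ficolin, had 0 UMIs.

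Of the azurophil genes 7 of 9 had no UMI in the same cell, among them Mpo, Elane, Prtn3 and Ctsg, which encode the peroxidase and the serine proteases of these granules. The other two were Serpinb1a, an inhibitor of granule proteases, with 7 UMIs against 23 in the other 357 cells, and Srgn, a granule proteoglycan, with 3 UMIs at 618 CPM (128 to 1807) against 3832 CPM. None of the 6 proliferation genes, such as Mki67 and Top2a, had a UMI, and the limit of 618 CPM holds for each 0 in this cell. Genes of mature blood neutrophils differed in their levels there. Retnlg, a resistin-like protein, had 3 UMIs, 618 CPM (128 to 1807) against 7563 CPM in the others, and Ccl6, a chemokine, had 3 UMIs, against 1844 CPM in the others. Il1b, the cytokine interleukin 1 beta, was at 2061 CPM (988 to 3790) against 3669 CPM, Msrb1, a methionine sulfoxide reductase, at 1443 CPM (580 to 2973) against 2757 CPM, and Btg1, an antiproliferative gene, at 2267 CPM (1132 to 4056) against 2097 CPM. Cxcl2 and G0s2 had 0 UMIs there, and 152 and 160 CPM in the others, under the limit. Of these 7 genes, the intervals of Retnlg and Ccl6 lay below the level of the other cells. Cxcr2, a receptor that draws neutrophils to chemokines and is in the list of receptors, had 2 UMIs, 412 CPM (49.9 to 1489) against 1677 CPM. The cell was chosen by its Camp, Ngp and Ltf counts, and the genes of this paragraph and the previous one that are not past 2-fold in the summed neutrophils were picked after their values were seen.

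The wt cell with the most Camp, Ngp and Ltf was shallow, with 592 UMIs, and 3.05% of wt neutrophils had fewer. It held 2 UMIs of Camp, 4 of Ngp and 5 of Ltf, 1.86% of its UMIs, and 4 of the 13 neutrophil markers. Chil3 gave 1 UMI there and none in the other wt neutrophils. Each library thus had exactly 1 neutrophil with 3 or more UMIs of the 3 genes. Outside the neutrophils the 3 genes had 3 wt and 5 db/db UMIs, never more than 1 per cell.

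Across the neutrophils, 3 of the 10 members, Camp, Ngp and Ltf, were at least 2-fold higher in db/db (log2 ratio of CPM plus 10 of 1 or more) and 0 were at least 2-fold lower. Of 4093 genes with at least 20 UMIs, 1.05% were at least 2-fold higher and 3.96% at least 2-fold lower. The median log2 ratio was 0.56 for the members and -0.20 for all these genes, and all 10 members were above 0. Without the 1 db/db cell, 0 of 10 were at least 2-fold higher, the median was 0.14 and 6 of 10 were above 0. Ngp and Ltf were then past 2-fold lower, each at -1.23, with 5 wt UMIs and no db/db UMI, fewer than 20 in all. The wt cell with the most UMIs of these genes was kept here. Neutrophils with other scaling gave another balance of calls over all genes: 43 higher and 162 lower with all UMIs, 81 and 118 without haemoglobin UMIs, 111 and 76 with the trimmed mean of M-values, and 87 and 91 with the median ratio of genes. The trimmed mean of M-values raised log2 ratios in neutrophils by 0.32 and the median ratio by 0.24 before the pseudocount. Under these 3 scalings Lcn2 joined the members past 2-fold, with log2 ratios of 1.15, 1.28 and 1.20.

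**Figure D2:**
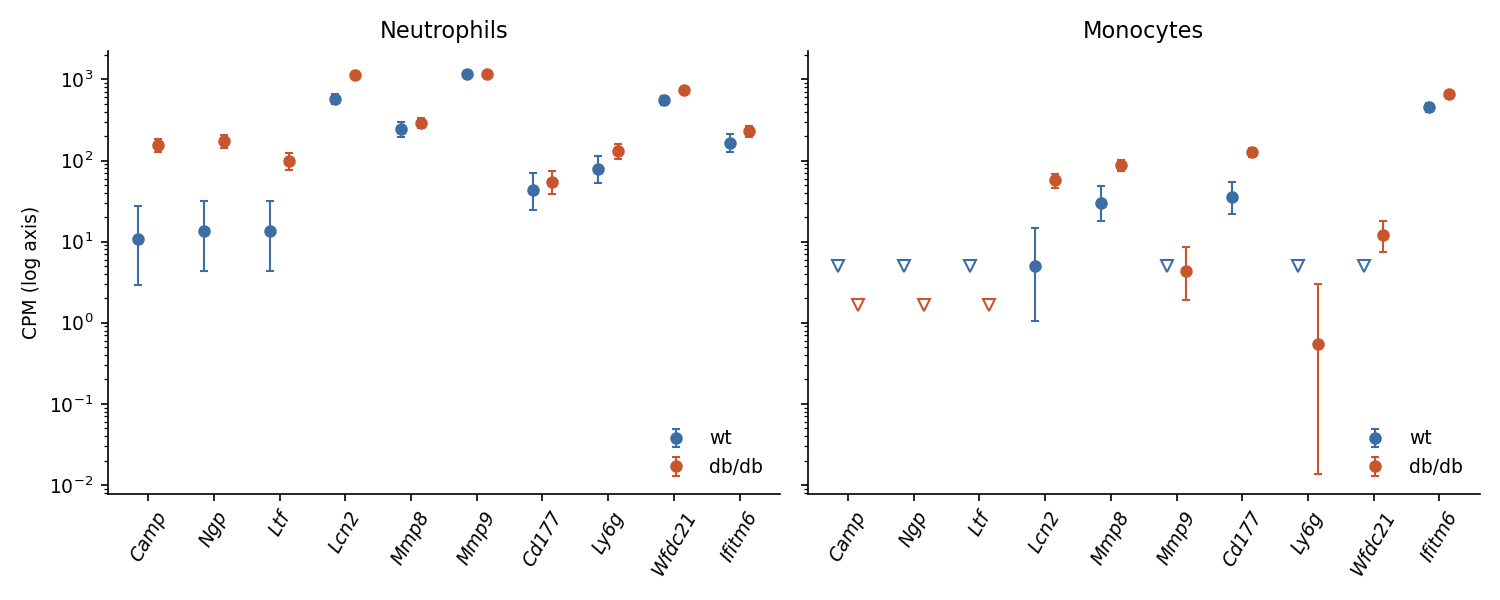
CPM of the 10 members (y, log axis) in neutrophils (left) and monocytes (right) of the wt (blue) and db/db (orange) library, with exact Poisson 95% intervals of counting error as bars and open triangles at the CPM of 3 counts for genes without a UMI. Camp, Ngp and Ltf are seen in neutrophils and not in monocytes, whereas Cd177 in db/db is at 55.0 CPM in neutrophils and 127 CPM in monocytes.

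For Lcn2 the difference was spread over many neutrophils. It had 213 UMIs in 54 of 164 wt neutrophils and 799 UMIs in 190 of 358 db/db neutrophils, or 575 CPM (501 to 658) and 1127 CPM (1050 to 1208). The intervals do not overlap, and the log2 ratio was 0.96 (0.74 to 1.18), just under 2-fold. Without the 1 db/db cell it was 0.88, in cells with under 10% haemoglobin UMIs (132 wt, 278 db/db) 1.18, and without haemoglobin UMIs 1.15. Over all 20 alternative settings it ran from 0.83 to 1.28.

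The Lcn2 difference lay in the number of cells that held a UMI more than in the UMIs per such cell. Of wt neutrophils 32.9% (25.8 to 40.7) held a Lcn2 UMI, and of db/db neutrophils 53.1% (47.8 to 58.3). Thinned to 1000 UMIs per cell, with 17 wt and 37 db/db cells too shallow and left out, the shares were 24.5% (17.8 to 32.3) and 47.7% (42.1 to 53.3). Cells with a UMI held 3.94 on average in wt and 4.21 in db/db. In B cells, which do not make granules, a Lcn2 UMI was seen in 0 of 2517 wt cells and in 4 of 2447 db/db cells (0.163%), at median depths of 2196 and 2183 UMIs against 1893 and 1474 in neutrophils.

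The share of cells with Lcn2 differed in the same direction in neutrophil barcodes rich and poor in haemoglobin. In a finer clustering of all kept barcodes, the neutrophils fell into a subcluster with 3.60% (wt) and 3.28% (db/db) haemoglobin UMIs and one with 42.5% and 59.7%. In the first, a Lcn2 UMI was held by 39 of 120 cells (32.5%) in wt and by 147 of 280 (52.5%) in db/db. In the second they were 15 of 44 (34.1%) and 43 of 78 (55.1%). As levels, the first had 704 CPM (603 to 818) and 1623 CPM (1502 to 1751), and the second 330 CPM (238 to 446) and 448 CPM (375 to 530), where the intervals overlap.

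Over all neutrophils, the intervals of both metalloproteinases of specific and gelatinase granules overlapped between the libraries. Mmp9, gelatinase B, had 429 UMIs in 137 wt neutrophils and 832 in 304 db/db neutrophils, at 1159 CPM (1052 to 1274) and 1173 CPM (1095 to 1256), a log2 ratio of 0.02 (-0.15 to 0.19). The share of cells with a Mmp9 UMI was 83.5% in wt and 84.9% in db/db, or 67.3% and 72.3% after thinning. Mmp8, neutrophil collagenase, had 90 UMIs in 51 wt cells and 208 in 94 db/db cells, at 243 CPM (195 to 299) and 293 CPM (255 to 336), a log2 ratio of 0.26 (-0.09 to 0.62). Both intervals of the log2 ratio include 0. For Mmp9 it ran from -0.05, with classes taken from the markers of each cell, to 0.34 with the trimmed mean of M-values. In the haemoglobin-poor subcluster the Mmp8 intervals were apart, at 280 CPM (217 to 355) in wt and 427 CPM (366 to 495) in db/db. In the haemoglobin-rich one Mmp8 stood at 173 CPM (108 to 261) and 110 CPM (75.9 to 155), with overlapping intervals. The Mmp9 intervals overlapped in both subclusters.

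Wfdc21, a secreted protein with a whey acidic protein domain, was at 551 CPM (478 to 632) in wt and 742 CPM (680 to 808) in db/db neutrophils, with 204 UMIs in 83 cells and 526 UMIs in 183 cells. Its log2 ratio was 0.42 (0.19 to 0.66), while the share of cells with a UMI was 50.6% and 51.1%. Without cells of several lineages (133 wt and 322 db/db neutrophils left) the log2 ratio was 0.15, and in cells with under 10% haemoglobin UMIs it was 0.75. In the haemoglobin-poor subcluster Wfdc21 stood at 634 CPM (538 to 743) in wt and 1083 CPM (985 to 1189) in db/db. In the haemoglobin-rich one it stood at 392 CPM (291 to 517) and 274 CPM (218 to 340), with overlapping intervals.

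The members with membrane products had low counts in neutrophils. Ly6g, the GPI-anchored protein by which mouse neutrophils are commonly sorted, had 29 UMIs in 16 wt cells and 92 in 51 db/db cells, at 78.3 CPM (52.5 to 112) and 130 CPM (105 to 159), a log2 ratio of 0.66 (0.10 to 1.24). Ifitm6, of the interferon-induced transmembrane family, had 61 UMIs in 38 wt cells and 163 in 81 db/db cells, at 165 CPM (126 to 212) and 230 CPM (196 to 268), a log2 ratio of 0.46 (0.05 to 0.88). This ratio joins opposite differences in the 2 subclusters named above. Ifitm6 stood at 161 CPM (114 to 220) in wt and 361 CPM (305 to 424) in db/db in the haemoglobin-poor one. In the haemoglobin-rich one it stood at 173 CPM (108 to 261) and 50.1 CPM (28.0 to 82.6). The part of haemoglobin in this was not tested. Cd177 had 16 UMIs in 15 wt cells and 39 in 29 db/db cells, at 43.2 CPM (24.7 to 70.2) and 55.0 CPM (39.1 to 75.2). Its log2 ratio of 0.29 (-0.44 to 1.03) was -0.02 without the 1 db/db cell. Ly6g and Ifitm6 belong to families with similar copies, and how reads shared between copies were counted is not given in the sources used here.

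**Figure D3:**
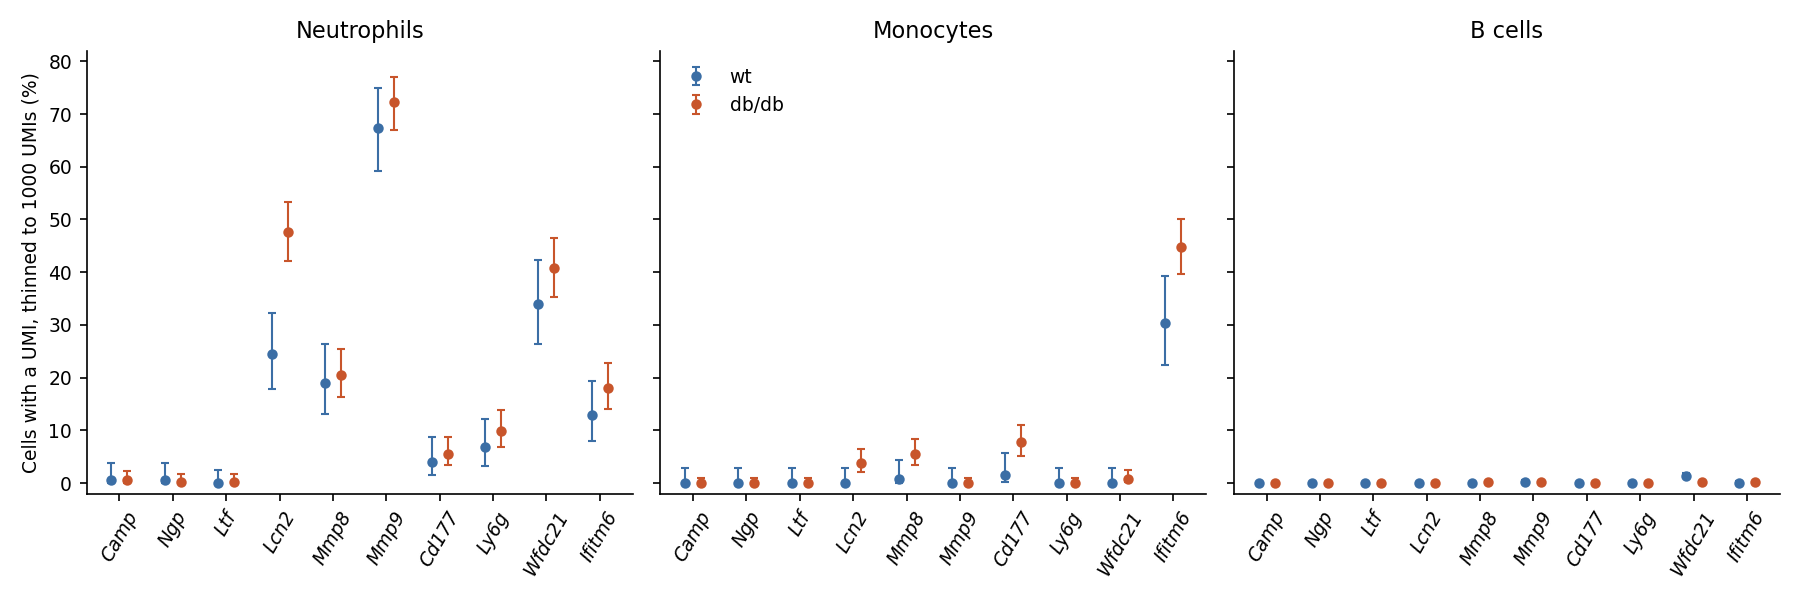
Share of cells with a UMI of each member (y, percent) after each cell was thinned to 1000 UMIs, in neutrophils (147 wt, 321 db/db), monocytes (125, 361) and B cells (2231, 2367), wt in blue and db/db in orange, with exact binomial 95% intervals. Among neutrophils the 2 intervals are apart for Lcn2 (24.5% and 47.7%) and overlap for the other 9 members.

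Apart from Camp, Ngp and Ltf, the UMIs of no member in neutrophils rested on 1 cell. The fewest cells that held 50% of the UMIs were 10 in wt and 33 in db/db for Lcn2, 36 and 87 for Mmp9, 16 and 36 for Wfdc21, and 14 and 20 for Mmp8. For the scarcer members they were 11 and 18 for Ifitm6, 6 and 13 for Ly6g, and 7 and 10 for Cd177. The highest single share among these was that of Cd177 in db/db, where the cell with Camp, Ngp and Ltf held 9 of 39 UMIs (23.1%).

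Most neutrophils carried few members. A wt neutrophil held a median of 2 of the 10 members and 4 UMIs of them, and a db/db neutrophil 2 members and 5 UMIs. Of wt neutrophils 9 (5.49%) held none and 15 held 5 or more members. Of db/db neutrophils 14 (3.91%) held none and 38 held 5 or more.

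Few of the other granule genes were past 2-fold in neutrophils. Of 9 azurophil genes, 2 reached 20 UMIs and none of these was past 2-fold, and Mpo, Elane and Ms4a3 had 0 UMIs in both libraries. Ctsc, the protease that activates azurophil enzymes, had 7 wt UMIs and 1 db/db UMI. Of 10 other specific granule genes, Chil3 and Olfm4 were past 2-fold higher and none lower. Chil3 had 1 wt UMI and 24 db/db UMIs, 21 of them in the 1 cell described above. Olfm4 had 9 and 44, 13 of them in that cell, and its log2 ratio of 1.07 was 0.65 without it. None of the 4 other gelatinase granule genes, 8 genes of secretory vesicles and surface receptors or 6 transcription factors of granulocyte development was past 2-fold in either direction. None of 6 genes of dividing precursors reached 20 UMIs. The 1.05% and 3.96% of all genes past 2-fold are the background for these counts as well.

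Genes of mature blood neutrophils included larger differences. Of 7 such genes, 3 were at least 2-fold higher in db/db and none lower, against 1.05% and 3.96% of all genes tested. Retnlg, G0s2 and Msrb1 of this list are also among the markers used to name the neutrophils. Retnlg had 818 wt and 5330 db/db UMIs, at 2209 and 7515 CPM, a log2 ratio of 1.76 (1.66 to 1.87). Cxcl2, a neutrophil-attracting chemokine, was at 54.0 and 151 CPM, a log2 ratio of 1.33 (0.71 to 1.96). G0s2, an inhibitor of lipolysis, was at 70.2 and 159 CPM, a log2 ratio of 1.08 (0.51 to 1.66). Leaving out the 1 cell gave 1.77, 1.34 and 1.09.

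Monocytes, the circulating precursors of many macrophages, lacked the precursor genes but held several other members. They numbered 127 in wt and 370 in db/db, with 594661 and 1832322 UMIs and medians of 3624 and 4938 UMIs per cell. Camp, Ngp and Ltf had 0 UMIs in the monocytes of both libraries, which allows a share of cells with a UMI of up to 2.36% in wt and 0.811% in db/db. Ly6g had no wt UMI and 1 db/db UMI, and Mmp9 had no wt UMI and 8 UMIs in 3 db/db cells.

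Of the 10 members 4, Lcn2, Mmp8, Cd177 and Wfdc21, were at least 2-fold higher in db/db monocytes and none was 2-fold lower. The call of Wfdc21 was lost without the cell of each library with the most of its UMIs (log2 ratio 0.58) and with wt set at 3 counts (0.55), which leaves 3 members. Of 7831 genes tested in monocytes, 0.766% were at least 2-fold higher and 0.983% at least 2-fold lower. The median log2 ratio was 0.52 over the members, or 0.30 with genes absent from wt set at the bound that 3 counts give, and -0.05 over all genes. With the trimmed mean of M-values 85 genes were higher and 57 lower in monocytes, against 60 and 77 with all UMIs, and with the median ratio 75 and 62. The count of members past 2-fold was 4 under each. Of the members, 5 reached 20 UMIs in monocytes.

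Lcn2 had 3 UMIs in 2 wt monocytes and 104 UMIs in 41 db/db monocytes, at 5.04 CPM (1.04 to 14.7) and 56.8 CPM (46.4 to 68.8), a ratio of 11.3 (3.74 to 55.4). Mmp8 had 18 UMIs in 11 wt cells and 160 in 73 db/db cells, at 30.3 CPM (17.9 to 47.8) and 87.3 CPM (74.3 to 102), a log2 ratio of 1.27. Cd177 had 21 UMIs in 11 wt cells and 233 in 103 db/db cells, at 35.3 CPM (21.9 to 54.0) and 127 CPM (111 to 145), a log2 ratio of 1.60. For these 3 genes the intervals of the libraries do not overlap. Wfdc21 had no wt UMI and 22 UMIs in 7 db/db cells, 13 of them in 1 cell. Against 3 counts in wt its CPM was at least 2.38-fold higher, and the exact interval of the ratio begins at 1.78. Ifitm6 had 269 UMIs in 88 wt cells and 1195 in 300 db/db cells, at 452 CPM (400 to 510) and 652 CPM (616 to 690), a log2 ratio of 0.52 that is under 2-fold.

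After thinning to 1000 UMIs the shares of monocytes with a UMI were 0% of 125 in wt and 3.88% (2.14 to 6.42) of 361 in db/db for Lcn2, where the 0 allows up to 2.40%. They were 0.800% and 5.54% for Mmp8, 1.60% and 7.76% for Cd177, and 30.4% and 44.9% for Ifitm6. The intervals overlapped for Lcn2, Mmp8 and Cd177 and were apart for Ifitm6, at 22.5 to 39.3% and 39.7 to 50.2%.

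Cd177 and Ifitm6 were the members whose UMIs lay mostly in monocytes. Of all Cd177 UMIs in kept barcodes, monocytes held 53.8% (37.2 to 69.9) in wt and 84.1% (79.3 to 88.2) in db/db, and of all Ifitm6 UMIs 78.0% (73.2 to 82.2) and 86.3% (84.4 to 88.1). Monocytes made up 2.22% of the kept barcodes of wt and 6.06% of those of db/db. By level, Cd177 was highest in db/db monocytes, followed by db/db neutrophils, wt neutrophils and wt monocytes, and the intervals of the last 3 overlap. Ifitm6 was highest in db/db monocytes, then in wt monocytes, db/db neutrophils and wt neutrophils, where only the neutrophil intervals overlap. Lcn2, Mmp8, Mmp9, Ly6g and Wfdc21 were higher in neutrophils than in monocytes of the same library.

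Within the monocytes these differences lay in cells of the classical range. Cells were split by whether UMIs of Ly6c2, Ccr2, Fn1, F13a1 and Vcan outnumbered those of Cx3cr1, Ace, Treml4, Cd300e and Adgre4, which gives a range and not a cell type and was chosen after the data were seen. In wt 46 cells fell in the classical range, 71 in the nonclassical range and 10 were tied, and in db/db 179, 178 and 13. Within 1 UMI of equal counts lay 4 wt and 4 db/db cells of the classical range and 3 and 11 of the nonclassical range. The classical range made up 36.2% of wt and 48.4% of db/db monocytes. Median depths in wt and db/db were 6927 and 6212 UMIs in the classical range and 3306 and 3179 UMIs in the nonclassical range. At least 2 neutrophil markers were held by 39.1% of wt and 59.8% of db/db cells of the classical range. In the nonclassical range these shares were 50.7% and 45.5%. Cd177 stood at 62.2 CPM (36.9 to 98.4) in wt and 195 CPM (170 to 222) in db/db cells of the classical range, Mmp8 at 55.3 CPM (31.6 to 89.8) and 138 CPM (117 to 161), and Lcn2 at 10.4 CPM (2.14 to 30.3) and 90.4 CPM (73.8 to 110). The log2 ratios there were 1.50, 1.18 and 2.30. In the nonclassical range the wt and db/db UMIs were 2 and 9 for Cd177, 2 and 2 for Mmp8, and 0 and 1 for Lcn2. Ifitm6 was seen in both ranges, at 484 and 733 CPM in the classical and 409 and 535 CPM in the nonclassical range.

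**Figure D4:**
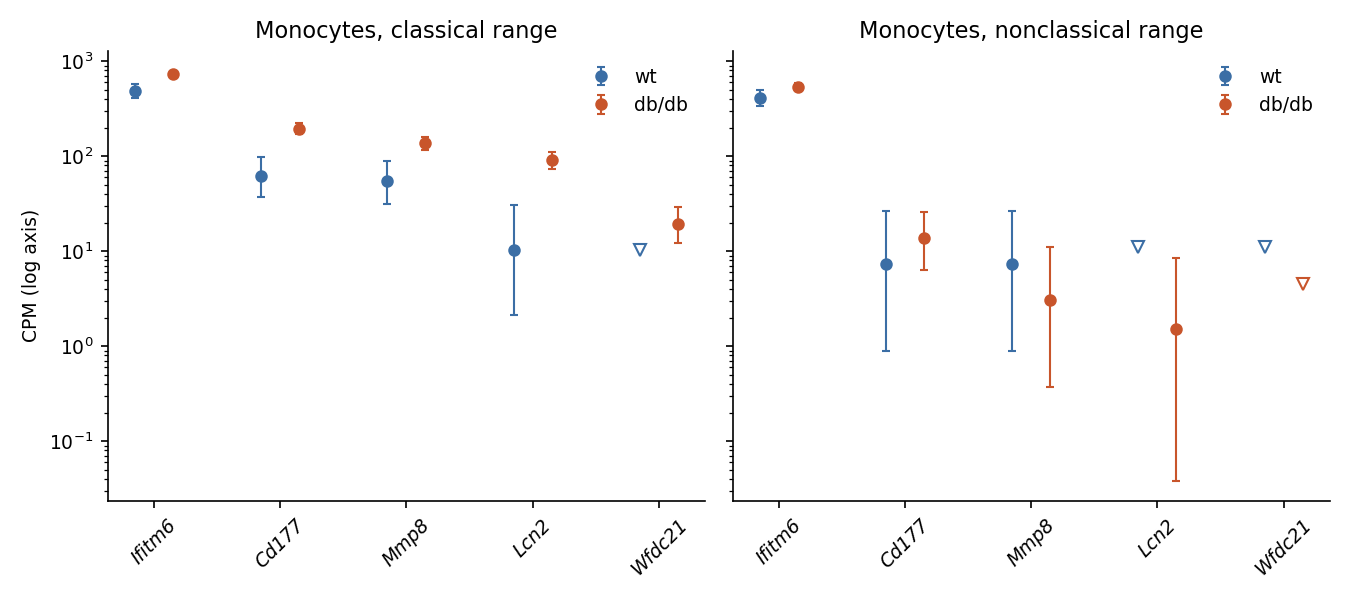
CPM (y, log axis) of 5 members in monocytes of the classical (left; 46 wt, 179 db/db cells) and nonclassical range (right; 71, 178), wt in blue and db/db in orange, bars for exact Poisson 95% intervals and open triangles for genes without a UMI, at the CPM of 3 counts. Cd177, Mmp8 and Lcn2 reach 195, 138 and 90.4 CPM in the db/db classical range and stay under 14 CPM in the nonclassical range.

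Among the 179 db/db monocytes of the classical range, 93 held a Cd177 UMI, with a median of 6460 UMIs against 5911 in the other 86. Of these 93 cells 53.8% held a Mmp8 UMI, 29.0% a Lcn2 UMI and 92.5% a Chil3 UMI. The shares among the other 86 were 23.3%, 15.1% and 47.7%. These shares describe the cells of 1 library, and the depths are close but not equal.

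Neutrophil markers in sum were also higher in db/db monocytes, though not each of them. The 13 neutrophil markers summed to 1022 CPM in wt monocytes, with 10 seen and Retnlg, Il1r2 and Stfa2l1 at 0, and to 1492 CPM in db/db monocytes, with all 13 seen. Msrb1 alone made up 822 CPM of the wt sum and 1000 CPM of the db/db sum. S100a8 stood at 5.04 CPM in wt monocytes and at 123 CPM in those of db/db, against 28974 and 26491 CPM in neutrophils. In db/db monocytes S100a8 had 226 UMIs in 48 of 370 cells, with 54 in the highest cell. S100a9 had 301 UMIs in 21 cells there, with 118 in the highest cell. Per 1000 UMIs of S100a8 and S100a9, db/db monocytes held 442 of Cd177, 304 of Mmp8 and 197 of Lcn2, and db/db neutrophils 0.650, 3.47 and 13.3. For Mmp9 the numbers were 15.2 in monocytes and 13.9 in neutrophils, and for Wfdc21 41.7 and 8.76. Without monocytes that held at least 2 neutrophil markers (68 wt and 177 db/db cells left), the log2 ratio was 1.99 for Cd177, 1.37 for Lcn2, 0.56 for Mmp8 and 0 for Wfdc21. Markers of other cells moved in both directions in monocytes. NK cell markers summed to 224 CPM in wt with 7 of 8 seen and to 3.27 CPM with 3 of 8 in db/db, and those of conventional dendritic cells to 274 and 112 CPM, with 5 of 5 seen in both. Those of plasmacytoid dendritic cells summed to 72.3 CPM with 3 of 4 seen in wt and to 116 CPM with all 4 in db/db, those of plasma cells to 215 and 248 CPM with 4 and 5 of 6 seen, and those of the kidney proximal tubule to 1.68 CPM with 1 of 8 seen and 27.3 CPM with 6 of 8 (Cubn and Slc5a2 at 0). Their part in the differences was not tested. Haemoglobin made up 8.0% of the UMIs of wt monocytes and 10.8% of those of db/db. In the cells with under 10% haemoglobin UMIs the log2 ratios were 1.80 for Cd177, 2.25 for Lcn2, 1.67 for Mmp8 and 1.33 for Wfdc21.

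Counts of the other granule genes in monocytes were small or mixed, against the same backgrounds of 0.766% and 0.983%. Of 10 other specific granule genes, Chil3, Hp and Slpi, a secreted protease inhibitor, were at least 2-fold higher in db/db, and none was lower. Hp and Slpi are named here after their values in monocytes were seen. Chil3 had 25 wt and 1900 db/db UMIs, at 42.0 and 1037 CPM, a log2 ratio of 4.33 (3.86 to 4.82).

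Wfdc21 was also seen in 1 group of B cells, the antibody-making lymphocytes. Wt B cells held 127 Wfdc21 UMIs in 65 of 2517 cells, and db/db B cells 13 UMIs in 9 of 2447. Of the wt UMIs, 120 (94.5%) lay in cluster 8, a B cell cluster in which Iglc1, a lambda light chain gene, and Vpreb3, of the pre-B cell receptor family, were among the leading genes. In cluster 8 Wfdc21 had 120 UMIs in 59 of 416 wt cells (14.2%) and 5 UMIs in 4 of 104 db/db cells (3.85%), at 111 CPM (91.8 to 132) and 20.1 CPM (6.53 to 46.9), a ratio of 0.181 (0.0579 to 0.435). In B cells outside cluster 8 the wt and db/db sums were 7 and 8 UMIs, 1.52 and 1.48 CPM. In db/db the intervals of Wfdc21 in cluster 8 and in monocytes (7.52 to 18.2) overlap. Vpreb3 also differed within cluster 8, at 1157 CPM (1094 to 1223) in wt and 543 CPM (455 to 642) in db/db. It was held by 80.0% of the wt and 60.6% of the db/db cells. Whether a different make-up of the cluster has a part in the Wfdc21 ratio was not tested.

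The wt cells of cluster 8 that held Wfdc21 held no other member. All 59 wt cells of cluster 8 with a Wfdc21 UMI held Cd79a, the B cell receptor signalling chain, none held any of the other 9 members, and 2 held at least 2 neutrophil markers. S100a8 and S100a9 together had 20 UMIs in the wt cells of cluster 8, against 120 of Wfdc21, whereas wt neutrophils held 6.31 Wfdc21 UMIs per 1000 of these genes. The median depth of the 59 cells was 2556 UMIs, against 2501 in all wt cells of the cluster.

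**Figure D5:**
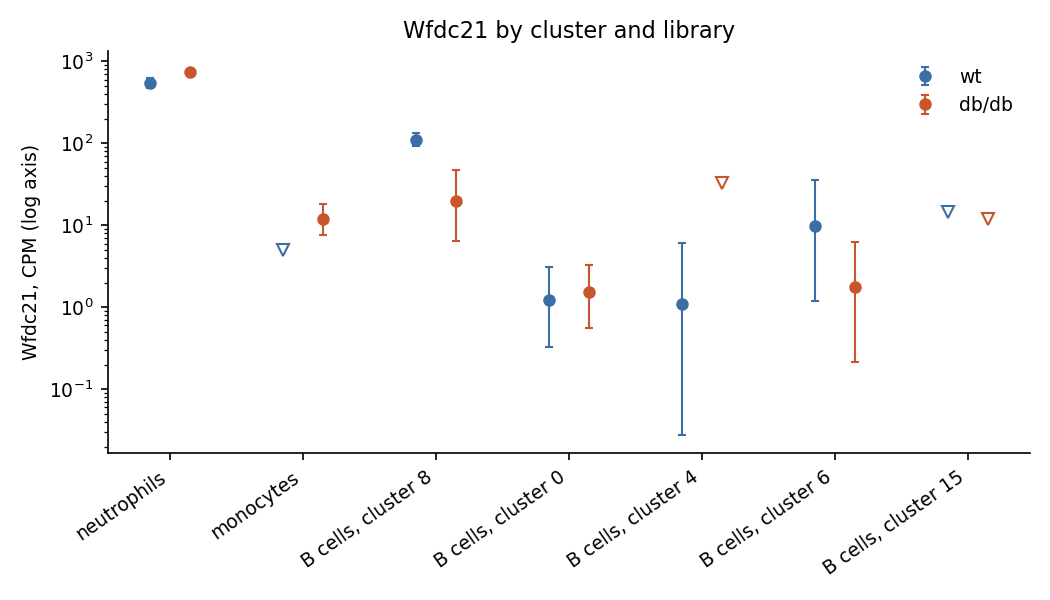
Wfdc21 CPM (y, log axis) in neutrophils, monocytes and the 5 B cell clusters, wt in blue and db/db in orange, bars for exact Poisson 95% intervals and open triangles for no UMI, at the CPM of 3 counts. Cluster 8 stands at 111 CPM for wt and 20.1 CPM for db/db, and the other B cell clusters are under 10 CPM or without a UMI.

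In the remaining classes the members were near the floor. T cells, NK cells, platelets and erythroid cells had at most 2.84 CPM of any member in either library. The highest counts there were 18 UMIs, of Wfdc21 in wt and of Ifitm6 in db/db erythroid cells. The largest erythroid cluster was cluster 2 in wt (901 cells) and cluster 1 in db/db (906 cells), and no comparison is drawn between them.

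The genes whose pattern over classes and libraries was most like the mean of the 10 members were taken by Pearson correlation of log2 CPM plus 10. Over 14 sums (7 classes in 2 libraries), which share library, depth and class, the correlation was 0.994 for Trpm2, a cation channel, 0.994 for Cd33, a sialic acid-binding receptor, and 0.989 for Trem1, an amplifier of inflammatory signals. Fpr1, the receptor for formylated bacterial peptides, was at 0.987 and Ccr1, a chemokine receptor, at 0.985. Among the members themselves the value ran from 0.751 for Ifitm6 to 0.991 for Lcn2. These values describe the pattern and carry no test.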

How the data were processed

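The deposited tables hold raw counts, whole-number UMIs per gene and barcode, which the authors made with Cell Ranger 3.0.2 on mm10, per the submitters' processing notes. The gene annotation and the cell calling are not given in the sources used here. The members and gene lists were chosen with earlier results of these data known. All 10 members are named, and list genes where at least 2-fold apart with at least 20 UMIs or where a role or a 0 needs them.

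Barcodes passing the filters (200 to 6000 genes, under 10% mitochondrial UMIs) were scaled to 10000 UMIs, put on a log scale and clustered by scanpy 1.11.5 and leidenalg 0.10.2 (2000 variable genes without members and other granule genes, 30 components, 15 neighbours, resolution 1) in Python 3.11.15. Clusters were named from at least 3 markers among 50 leading genes. No doublet caller was run, and cells with markers of several lineages were left out as an alternative.

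UMIs were summed per class and library. Intervals are exact Poisson (sums), conditional binomial (ratios) and Clopper-Pearson (shares). No test between groups was made, each having 1 library. Ratios were tested on simulated sums with counting error only, which cannot represent UMIs gathered in 1 cell. Alternatives changed filters, clustering, pseudocount, scaling, cell weights and the cells kept. Positions are from GENCODE M21 on GRCm38. RefSeq promoters matched 8 of 10 members.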

Additional observations from a re-analysis of the deposited data

Results flagged for a closer look

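Barcodes left out by the filters on genes and mitochondrial UMIs entered no comparison, and 4 members had more than 3 UMIs there in db/db at a higher CPM than in the left-out wt barcodes. Lcn2 had 34 UMIs in the left-out db/db barcodes and 5 in the wt ones, or 0.685 and 0.154 CPM. Mmp8 had 29 and 4 UMIs. Ly6g had 11 and 2 UMIs, and Ifitm6 had 48 and 14. Mmp9, Cd177 and Wfdc21 also had more than 3 UMIs there in db/db, at a lower CPM than in wt. The same comparison over all genes was not made. Among kept barcodes, neutrophils and monocytes made up 2.86% and 2.22% in wt and 5.86% and 6.06% in db/db. The part of such shares in the left-out counts was not tested. The left-out barcodes numbered 13803 in db/db and 10973 in wt.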

How the results depend on the processing

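The count and median of the members in neutrophils rested on 1 cell. The count of members at least 2-fold higher in db/db, 3 of 10, was 1 (Lcn2, at 1.06) when each gene lost its own highest cell in each library, and 0 both without the 5 cells highest in Camp, Ngp and Ltf and without the 1 db/db cell alone. The median of 0.56 was 0.14 under each of these. Camp reversed to -0.43 and Ngp to -0.35 without their highest cells, Camp, Ngp and Ltf to -0.87, -1.23 and -1.23 without the 1 cell, and Ltf to -0.31 when every cell weighed the same. The other 17 settings kept the count within 1.5 times. Over all genes tested in neutrophils the 43 higher and 162 lower became 81 and 118 without haemoglobin UMIs, 111 and 76 with the trimmed mean of M-values, and 87 and 91 with the median ratio. In monocytes the count of 4 was 1 with a pseudocount of 50 CPM, 2 without cells of several lineages (39 wt and 137 db/db cells left) and 2 without monocytes with 2 neutrophil markers. The median of 0.52 was 1.06 with a pseudocount of 1 CPM, 0 without cells of several lineages, 0 without monocytes with 2 neutrophil markers, and 0.68 in the classical range. The cause of these moves in monocytes was not tested. Lcn2 and Cd177 kept their direction in monocytes under all 21 settings. The settings without the 1 cell, without shared barcodes, in the classical range and without monocytes with neutrophil markers were chosen after seeing the data. No paired analysis was possible because each genotype has 1 library, and for the same reason no replicate could be left out. At 1474 UMIs per db/db neutrophil, a gene without a UMI in a cell may still be expressed.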
